A study of Mus musculus with 6 samples.

Results

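The reads described here are fragments of small non-coding RNAs of the class miscRNA that came down with Argonaute (Ago) proteins from mouse brain. A read sequence was taken when the authors' annotation called it miscRNA and gave it no miRNA name, which 411 of the 143934 read sequences met (0.286%). Small RNAs bound in the RNA-induced silencing complex (RISC) were pulled down with a peptide of GW182, a protein that binds Ago1-4, and were sequenced after a gel cut for size. The tissue was cortex with hippocampus of BL6 mice, 3 libraries at 2 months (2M) and 3 at 18 months (18M). The mice were purchased C57BL/6J males, and no transgene or treatment is given for either group. The labels do not say whether each library is a single mouse, so the p-values measure only the spread between these samples, which may be technical. In bulk tissue, fewer cells of a type and less RNA per cell cannot be told apart.

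Y RNAs are short transcripts of RNA polymerase III that fold back so that their 5′ and 3′ ends pair in a stem, and they are bound by the Ro60 and La proteins. Fragments of both ends of Y RNAs are commonly found in tissues and body fluids. BC1 is a rodent RNA of neurons that is carried into dendrites and represses translation, and vault RNA is a component of the vault particle. An Ago-bound small RNA finds its targets mainly through its seed, here the 6mer at read positions 2 to 7, and the study ranks seeds by the viability of cells that received an siRNA with that seed.

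All 411 sequences were annotated to 4 RNAs. Rny1 had 221 sequences, Rny3 156, Bc1 26 and the vault RNA Vaultrc5 8. Of the 114 that matched Rny1 without a mismatch, 32 also matched other genes (up to 4 genes in all), and these held 19.7% of the exact-match RPM, so the Rny1 totals may hold reads of those genes. Rny1 lies at chr6:47788069-47788180 on the minus strand and Rny3 at chr6:47781624-47781725 on the plus strand (GRCm38), 6343 bp apart. Both are annotated as misc_RNA genes, of 112 and 102 nt, and no other gene overlaps them. Bc1, a lincRNA of 168 nt in the annotation, lies at chr7:144914470-144914637 on the plus strand.

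The reads that made up most of the signal started at a few bases near the 3′ end of each Y RNA. The last 30 bases of both RNAs are shown to place them, with no base marked.
Rny1 from base 83: cttctcactactgcacttgactagtctttt
Rny3 from base 73: gctcccactgcttcacttgaccagcctttt
Aligned at their last base, 23 of these 30 bases were the same. In the structure of lowest energy that RNAfold gave, 17 of the last 30 bases of Rny1 and 21 of those of Rny3 paired with the first 30 bases. The 2 most abundant Rny1 reads, the 3 most abundant Rny3 reads and the most abundant read from the 5′ end of each Y RNA are shown because the results turn on where they start. The main Bc1 read is shown to place it, and its mean of 0.204 RPM rests on few reads and was not tested. The capitals mark the 6mer seed.
Rny1 bases 84 to 107: tTCTCACtactgcacttgactagt
Rny1 bases 84 to 110: tTCTCACtactgcacttgactagtctt
Rny3 bases 74 to 97: cTCCCACtgcttcacttgaccagc
Rny3 bases 75 to 97: tCCCACTgcttcacttgaccagc
Rny3 bases 79 to 101: aCTGCTTcacttgaccagccttt
Rny1 bases 1 to 23: gGCTGGTccgaaggtagtgagtt
Rny3 bases 1 to 25: gGTTGGTccgagagtagtggtgttt
Bc1 bases 130 to 154: aAGGTAActggcacacacaaccttt
The lines for Rny3 bases 74 to 97 and 75 to 97 differ by 1 base at the start, which gives them different seeds.

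The libraries held 19272046 to 25080484 reads, of which 6544 to 9574 were miscRNA reads, and 3 reads corresponded to 0.120 to 0.156 RPM, the reads of a sequence scaled to the library total. Brain miRNAs (5 of 5 listed found) summed to 196954 to 256251 RPM, against 6.17 to 7.68 RPM for the liver marker. The muscle list (3 of 3 found) summed to 195 to 355 RPM. The erythrocyte list (2 of 3 found, miR-486a-5p not found under that name alone) summed to 2356 to 3498 RPM at 2M and 1112 to 2736 RPM at 18M. Markers were matched by single names, so reads under joined miRNA names were not counted. The pituitary list summed to 171 to 1944 RPM at 2M and to 149 to 177 RPM at 18M. The part of these markers in the results was not tested.

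Rny1 was the main source. Its reads summed to 311, 247 and 239 RPM in 2M replicates 1 to 3 and to 374, 326 and 321 RPM in 18M replicates 1 to 3. Every 18M library lay above every 2M library, and the means were 266 ± 39.5 and 340 ± 29.5 RPM (SD, n = 3 each), a ratio of 1.28. The log2 fold change was 0.36 with an SE of 0.16, and the adjusted p from limma over all 2127 RNA labels tested was 0.499. Of those labels 0.141% passed an adjusted p of 0.05, and 6.02% had every 18M library above every 2M library. Over 6 libraries Rny1 made 76.4% of the miscRNA RPM, and its 303 RPM would place it at rank 197 among the 1091 miRNA labels, between miR-382-3p at 304 RPM and miR-370-3p at 299 RPM.

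Rny3 was the next source, with 93.0, 93.3 and 70.8 RPM at 2M and 106, 79.5 and 101 RPM at 18M. The ages overlapped, and the log2 fold change was 0.16 (SE 0.18, limma adjusted p = 0.778), or 0.03 without 2M replicate 3 and 0.28 without 18M replicate 2. Bc1 reads had 2.29, 2.67 and 1.76 RPM at 2M and 2.59, 1.41 and 1.92 RPM at 18M, again with overlap (log2 fold change -0.20, SE 0.29, limma adjusted p = 0.818). Vaultrc5 had a mean of 0.898 RPM over 6 libraries, under the minimum of 1 RPM, and was not tested. None of the 3 RNAs tested passed an adjusted p of 0.05 in limma, edgeR or DESeq2. Of all 2127 labels, 3 passed it in limma, 4 in edgeR and 37 in DESeq2. None of the 3 RNAs had an unadjusted limma p under 0.05, while edgeR and DESeq2 each gave 1, Rny1. Over all labels an unadjusted p under 0.05 was found for 10.7% in edgeR and 9.36% in DESeq2, in either direction, and for 3.86% in limma with a higher value at 18M. The log2 fold change was above 0 for 2 of the 3, against 37.2% of all labels, whose median was -0.10. With median-of-ratios scaling that median was -0.01 and Rny1 was at 0.46.

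**Figure D1:**
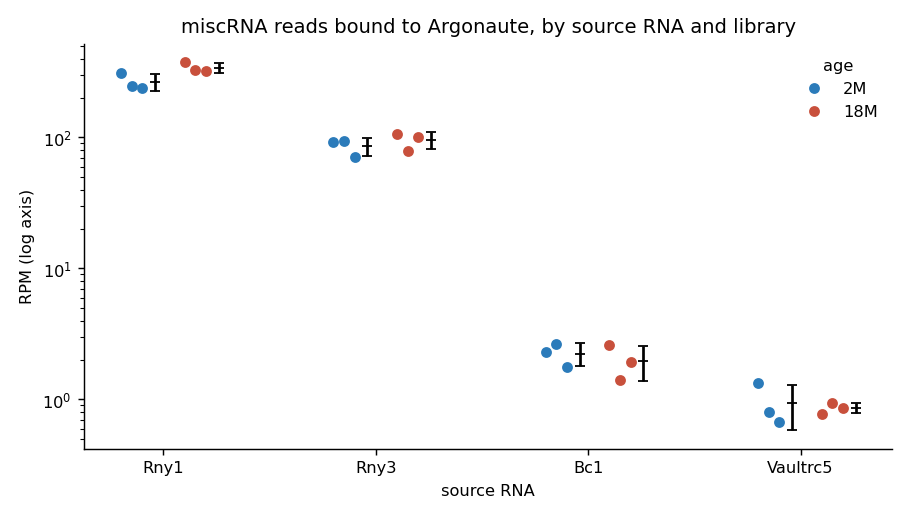
RPM (log axis) of the miscRNA reads of each source RNA in every library. Points are single libraries, the bars beside them the mean ± SD of 3 libraries. Rny1 sits between 239 and 374 RPM, with all 18M libraries above all 2M libraries, while the ages overlap for Rny3, Bc1 and Vaultrc5.

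Both Y RNAs were represented mostly by their 3′ end. For Rny1, 184 sequences that end within the last 20 bases held 97.3% of its RPM, and 18 sequences that start within the first 3 bases held 2.23%. For Rny3 the 3′ end held 88.2% and the 5′ end 10.6%. The 3′ end share of all Y RNA reads ranged from 93.9% to 96.7% over the 6 libraries, and the ages did not differ beyond their spread (94.6% ± 0.818 at 2M, 95.8% ± 1.2 at 18M, SD, n = 3 each, exact two-sided permutation p = 0.3, where 0.1 is the smallest possible).

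The 5′ starts were few and the 3′ stops many. Of the Rny1 3′ end reads, 70.8% started at base 84 and 21% at base 83. Their last matching base was base 107 for 33.8%, base 110 for 23.3% and base 104 for 14.9%. Rny3 reads had 3 main starts, with 31.4% at base 74, 28.6% at base 79 and 24.2% at base 75, and 29% stopped at base 97. In 7.51% of Rny1 and 16.9% of Rny3 3′ end RPM, up to 3 bases followed the last matching base without continuing the match. In 6.83% and 11% these were A only. Added bases and changed bases near the end were not told apart, and these reads were not searched in other genes.

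**Figure D2:**
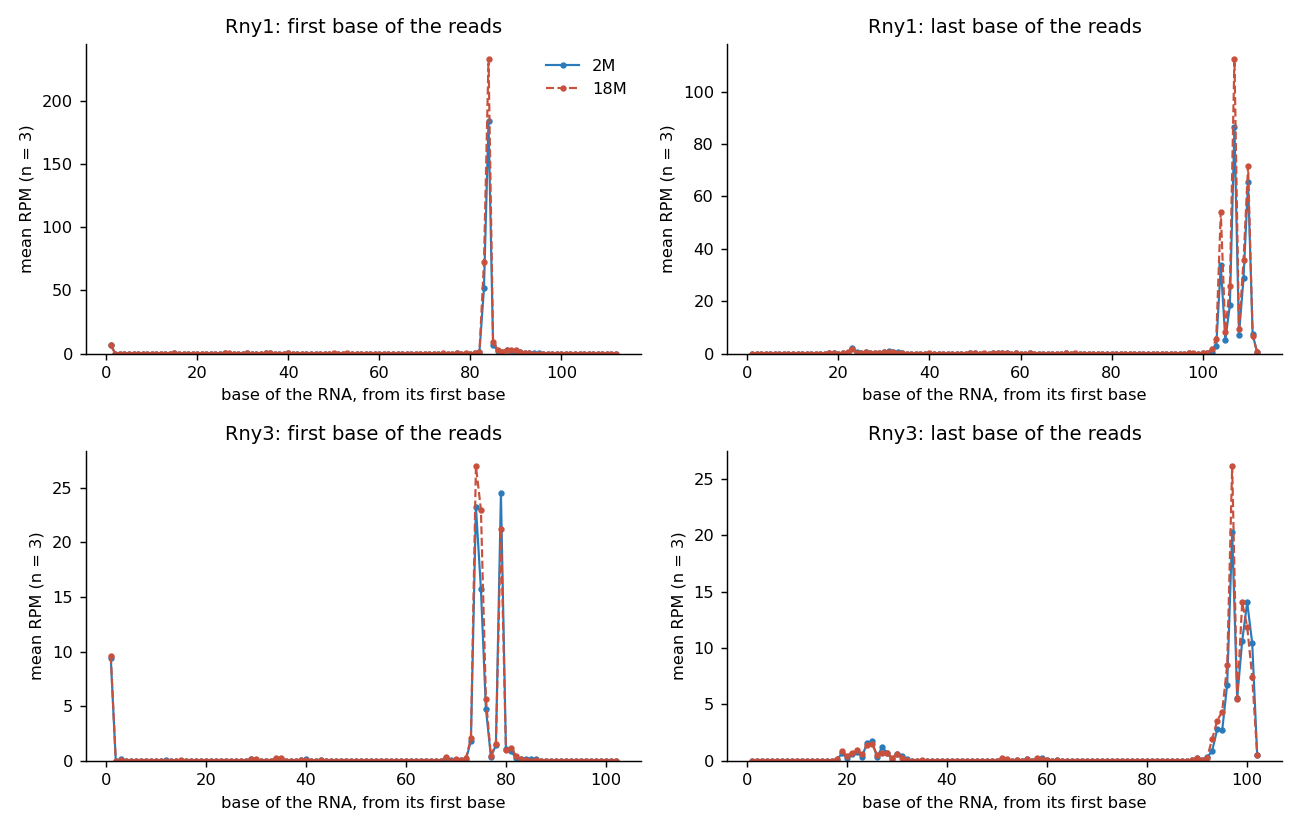
Mean RPM of reads by their first base (left) and last matching base (right) along Rny1 (top) and Rny3 (bottom), for 3 libraries at 2M (solid) and 3 at 18M (dashed). Rny1 starts concentrate at bases 83 and 84, and its stops form peaks at bases 104, 107 and 110.

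A miRNA usually has 1 main 5′ end and so 1 main seed. The most frequent seed held 68.6% of Rny1 RPM and 27.7% of Rny3 RPM. Over 273 miRNAs of at least 100 RPM the median of the same share was 96.8%, with 26 of them (9.52%) below Rny1 and 0 below Rny3. The miRNA share is per miRNA name, while those of the Y RNAs take in the whole RNA. Within the 3′ end reads alone the shares were 70.6% for Rny1 and 31.4% for Rny3, and the lowest miRNA share was also 31.4%. This is a description, since the reads of a single RNA are not replicates.

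The miscRNA reads were longer than the other classes. Their mean length was 24.2 nt ± 0.166 over the 6 libraries (SD), against 21.7 ± 0.0140 for miRNA reads, 21.8 ± 0.0963 for tRNA, 21.7 ± 0.0715 for rRNA and 21.5 ± 0.110 for snRNA and snoRNA reads. Within each library the miscRNA reads were longer, by 2.48 nt on average than miRNA reads (range 2.26 to 2.71, exact paired permutation p = 0.031, the smallest 6 libraries allow, adjusted p = 0.0357 over 8 comparisons), and the other 3 classes gave differences of 2.44 to 2.71 nt with the same p. Among miscRNA reads 28.8% of RPM was 24 nt and 15.6% was 27 nt, where miRNA reads had 39.9% at 22 nt and 0.0135% at 27 nt. At 28 nt the miscRNA reads summed to 20.8 RPM and all miRNA reads to 18.7 RPM.

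**Figure D3:**
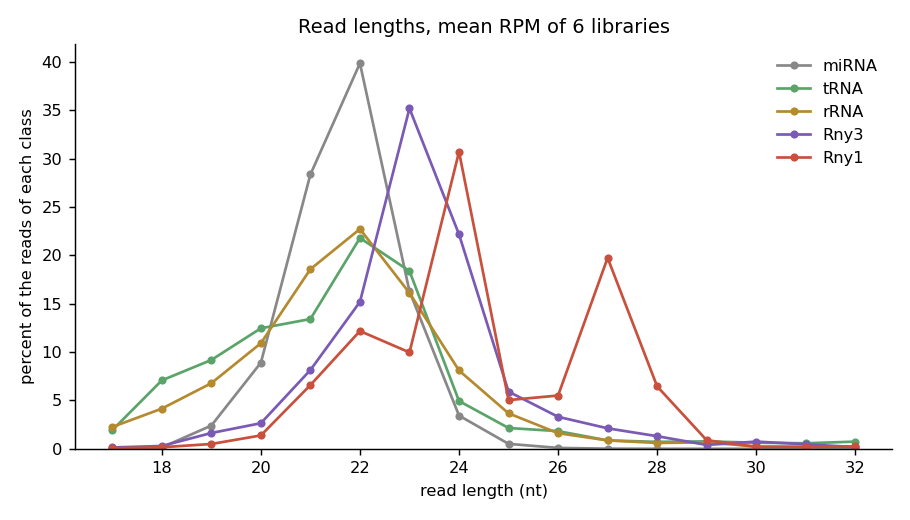
Percent of the RPM of each class by read length, means of 6 libraries. miRNA reads peak at 22 nt, Rny3 reads at 23 nt, and Rny1 reads at 24 nt with another peak at 27 nt.

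Seed viability is a score on a percent scale that exceeds 100 for 5 of the 4032 seeds of the table, and the miscRNA seeds ranged from 16.5 to 98.9. The mean seed viability of miscRNA reads, weighted by RPM, was 58.3% ± 0.416 over 6 libraries (SD), and that of miRNA reads 57.9% ± 0.263. The difference of 0.379 percentage points ranged from -0.304 to 1.26 between libraries and was not larger than that spread (exact paired permutation p = 0.156). It was 2.48 points without the most abundant miscRNA sequence, the Rny1 read of bases 84 to 107 (exact paired permutation p = 0.031). That read, at 50.5%, lies below the mean, so leaving it out of the miscRNA side alone raises the difference by construction. miscRNA seeds were lower in viability than tRNA seeds (62.4%, difference -4.08) and higher than those of rRNA (54.7%, difference 3.63) and of snRNA and snoRNA (54.1%, difference 4.18), each in 6 of 6 libraries with an exact paired permutation p of 0.031 and an adjusted p of 0.0357. The sizes moved with the sequences taken. With sequences of at least 1 RPM the 3 differences were -5.37, 1.85 and 10.97 points, and without the most abundant miscRNA sequence -1.97, 5.74 and 6.28, with the same exact permutation p and direction.

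A shift of the start by a single base changed the seed and its viability. Rny1 reads from base 84 carry the seed UCUCAC, at 50.5% viability, and those from base 83 carry UUCUCA, at 70.3%. The Rny3 starts at bases 74, 75 and 79 carry UCCCAC (65.9%), CCCACU (81.2%) and CUGCUU (81.1%). The 5′ ends carry the seeds of lowest viability among these, GUUGGU of Rny3 at 20.4% and GCUGGU of Rny1 at 34.5%.

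For some of these seeds the Y RNA reads made nearly all pull-down reads with that seed. UCUCAC summed to 220 RPM over all reads, of which 208 RPM (94.6%, 93.5% to 95% by library) were miscRNA reads, and no RefSeq mature mouse miRNA in the reference table has it. The next source was reads named miR-342-3p, at 9.12 RPM. UUCUCA was at 97.1%, CUGCUU at 93.1% and CCCACU at 89.0% miscRNA. UCCCAC, the most frequent Rny3 seed, was at 12.3% of 206 RPM. It is also the seed of miR-188-3p, whose named reads made 31.5 RPM of it. GUUGGU was at 46.2%. The lowest share among these was that of GCUGGU, the seed of miR-138-5p, a miRNA abundant in brain. Reads named miR-138-5p summed to 13954 RPM, and the Rny1 5′ end made 0.0475% of that seed.

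**Figure D4:**
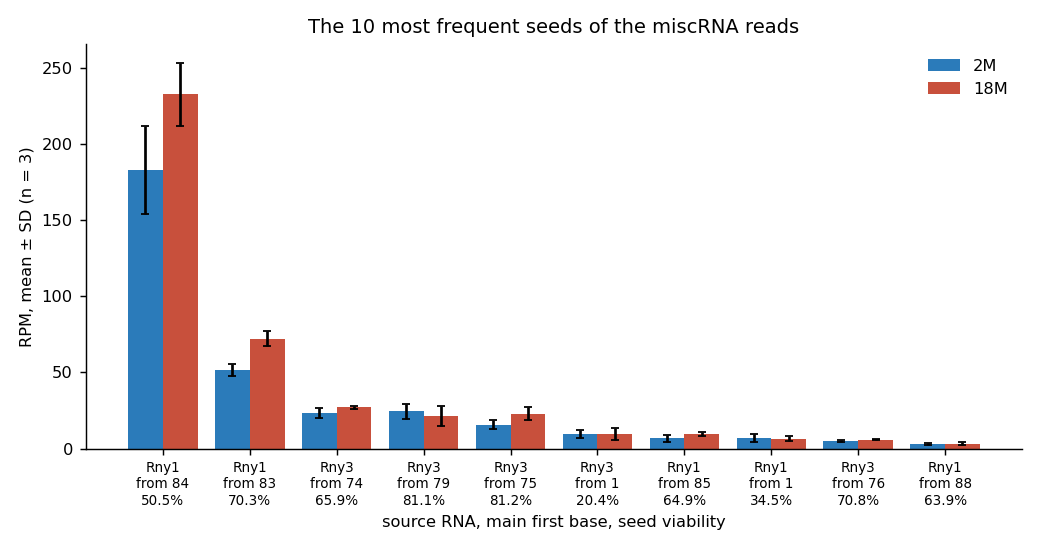
RPM of the 10 most frequent miscRNA seeds at 2M and 18M (bars, mean ± SD of 3 libraries), named by source RNA, main first base and seed viability. The seed of Rny1 from base 84 has a mean of 183 RPM in the 2M and 233 RPM in the 18M libraries, and the seed from base 83 has 51.6 and 72.2 RPM.

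The ages were compared read by read for the 45 miscRNA sequences whose mean reached 1 RPM, which hold 84.2% of the miscRNA RPM. None passed an adjusted p of 0.05 in limma, against 0.16% of the 16220 sequences tested (0.0986% with a higher value at 18M). In edgeR none did, against 9 of all 16220 sequences, and 11 (24.4%) had an unadjusted p under 0.05, against 11.1% of all sequences. DESeq2 called 1 of 45, the Rny1 read of bases 84 to 104, against 1.43% of all sequences. An unadjusted limma p under 0.05 with a higher value at 18M was found for 10 of 45 (22.2%), against 6.47% of all sequences, and 15 of 45 (33.3%) had every 18M library above every 2M library, against 9.12%. In the other direction 1 of 45 had an unadjusted p under 0.05, against 4.19%, and 0 of 45 had every 18M library below every 2M library, against 7.94%. The log2 fold change was above 0 for 33 of 45 (73.3%), against 50.8% of all sequences. The median log2 fold change was 0.29 for the 45 and 0.01 for all sequences tested. Reads of the same RNA overlap and are not independent of each other.

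Grouped by their last base, the Rny1 reads with the earliest stops had the larger ratio between the ages. The grouping by stop was chosen after the values were seen. Rny1 3′ end reads that stopped at base 104 or before summed to 39.5, 41.4 and 31.6 RPM at 2M and to 59.7, 62.8 and 62.3 RPM at 18M. All 18M libraries lay above all 2M libraries, at a ratio of 1.64 (37.5 ± 5.19 and 61.6 ± 1.67 RPM, SD, n = 3 each). Stops at bases 105, 106, 107 and 108 had ratios of 1.61, 1.40, 1.30 and 1.28, with overlap only at base 108. Reads that stopped at base 109 or later had means of 102 ± 25.1 and 115 ± 18.7 RPM, a ratio of 1.12, with overlap. As a share of Rny1 3′ end reads, the short stops made 14.7% ± 2.45 in the 2M and 18.6% ± 1.92 in the 18M libraries (mean ± SD, n = 3 each), and this share overlapped between the ages (exact two-sided permutation p = 0.2, adjusted p = 0.51 over 17 measures).

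These short reads cannot be assigned to Rny1 alone. Of the exact-match RPM that stopped at base 104 or before, 98.5% also matched another gene, of which nearly all (98.4% of the same RPM) matched Gm24372, a misc_RNA gene on a different chromosome, while 4.56% of the RPM with stops at bases 105 to 108 and none of that at base 109 or later matched a further gene. Among the stops at base 105, the reads of bases 84 to 105 and 83 to 105 also matched Gm24372. All Rny3 and Bc1 reads with an exact match were found in 1 gene only. Rny3 3′ end reads that stopped at bases 94, 95, 96 and 97 had ratios of 1.28, 1.62, 1.25 and 1.29. Stops at bases 98, 99, 100 and 101 had 0.99, 1.32, 0.85 and 0.71. The ages overlapped at all of these Rny3 stops except bases 95 and 97, and the pattern was not tested.

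The read of bases 84 to 104 of Rny1, 21 nt long, had 10.2, 10.9 and 8.58 RPM at 2M and 18.3, 17.4 and 19.8 RPM at 18M. All 18M values were above all 2M values, and the log2 fold change was 0.90 (SE 0.19, limma adjusted p = 0.156, DESeq2 adjusted p = 0.0145). It is among the reads shared with Gm24372. Bases 83 to 104 had 23.4, 25.5 and 18.5 RPM at 2M and 32.6, 36.8 and 33.3 RPM at 18M, a log2 fold change of 0.62 (SE 0.20, limma adjusted p = 0.32), and are shared too.

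Among reads found in Rny1 only, bases 84 to 106 had 15.5, 15.4 and 12.8 RPM at 2M and 20.95, 22.5 and 19.1 RPM at 18M. These did not overlap, with a log2 fold change of 0.52 (SE 0.19, limma adjusted p = 0.38). The most abundant read, bases 84 to 107, had 85.2, 68.9 and 67.2 RPM at 2M and 104, 91.5 and 88.5 RPM at 18M, without overlap and with a log2 fold change of 0.36 (SE 0.18, limma adjusted p = 0.509). Bases 84 to 110 had 57.3, 36.8 and 39.1 RPM at 2M and 56.7, 42.6 and 47.1 RPM at 18M, which overlapped (log2 fold change 0.15, SE 0.23, limma adjusted p = 0.819, 0.03 without 2M replicate 2 and 0.35 without 2M replicate 1). Of the remaining 2 Rny1 reads among the 10 most abundant, bases 84 to 109 overlapped between the ages (log2 fold change 0.41, 0.22 without 2M replicate 2) and bases 83 to 107 did not (0.29, 0.17 without 18M replicate 1).

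For Rny3, bases 75 to 97 had 8.10, 6.14 and 5.72 RPM at 2M and 15, 10.3 and 11.5 RPM at 18M. The ages did not overlap, and the log2 fold change was 0.87 (SE 0.23, limma adjusted p = 0.247). The read that starts 1 base earlier, bases 74 to 97, had 11.7, 12.4 and 9.96 RPM in the 2M and 10.8, 10.1 and 11.8 RPM in the 18M libraries, with overlap and a log2 fold change of -0.05 (SE 0.19, limma adjusted p = 0.939). Bases 79 to 101 had 8.38, 10.8 and 6.43 RPM at 2M and 5.19, 4.56 and 6.85 RPM at 18M, which overlapped in 1 library of each age (log2 fold change -0.60, SE 0.26, limma adjusted p = 0.454).

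**Figure D5:**
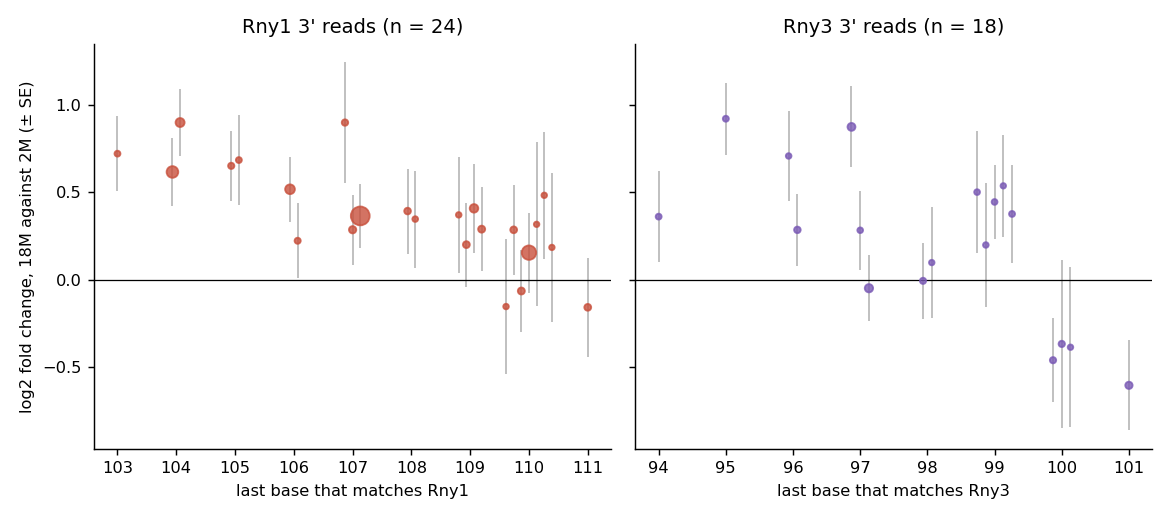
log2 fold change (18M against 2M, ± SE from limma) of the 24 Rny1 and 18 Rny3 3′ end sequences tested, by the last base that matches the RNA. Point area grows with mean RPM, and points of the same stop are spread sideways. For Rny1 the 3 sequences that stop at base 104 or before lie between 0.62 and 0.90 and the 12 that stop at base 109 or later between -0.16 and 0.48.

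The 5′ end reads did not separate the ages. Those of Rny1 summed to 7.06 ± 2.63 RPM in the 2M and 6.43 ± 1.60 RPM in the 18M libraries, and those of Rny3 to 9.51 ± 2.61 and 9.67 ± 4.25 RPM (mean ± SD of 3 libraries), and both overlapped. The mean length of all miscRNA reads was 24.3 nt ± 0.163 at 2M and 24.1 ± 0.0940 at 18M (SD, n = 3 each, exact two-sided permutation p = 0.2), and the mean seed viability 58.3% ± 0.544 and 58.4% ± 0.355 (p = 0.8 in the same exact test). Together the miscRNA reads made 0.04079%, 0.03442% and 0.03120% of all reads in the 2M and 0.04839%, 0.04083% and 0.04247% in the 18M libraries. This was the one measure of 17 whose ages did not overlap, by a narrow margin (0.0355% ± 0.00488 and 0.0439% ± 0.00398, SD, n = 3 each, exact two-sided permutation p = 0.1, the smallest possible). The smallest adjusted p over the 17 was 0.51.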

How the data were processed

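Small RNAs of 6 Ago pull-down libraries were sequenced on an Illumina platform. As the study's methods describe it, the authors trimmed the reads (Trim Galore in the submitters' processing notes), collapsed them, removed rare ones and matched the rest to mouse small RNA lists with SPOROS. The deposited values are RPM, scaled by the authors to the same total per library. The deposited seed viability is a score in percent of surviving cells, averaged over mouse cell lines, which exceeds 100 for 5 of 4032 seeds. Versions and genome build are not given in the sources used here.

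All RPM values were whole multiples of 1 read within 0.001 RPM, so reads were recovered. Source RNAs carry accession-like names in the table and were identified by exact match to GENCODE M21 transcripts (GRCm38). Reads were placed exactly, then with up to 3 closing bases left unmatched, then with up to 2 mismatches. Exact-match reads of any length were searched for copies in other genes, among GENCODE transcripts only. Reads under other annotations were searched for listed miscRNA genes at 18 nt or more. RNAfold 2.7.2 gave structures. Mature miRNA seeds came from RefSeq. No library pair was a duplicate, and intervals and floors cover counting error only.

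limma 3.58.1 (lmFit, eBayes with trend, R 4.3.3) was run on log2(RPM + 0.1), which understates changes of low reads, keeping features whose mean reached 1 RPM, and p-values were adjusted by Benjamini-Hochberg over all features tested. On simulated reads changed 4-fold, 144 of 146 changed sequences of 16311 were called and 11 of 16165 unchanged ones. All simulated sequences had the same set spread between libraries, which was not fitted to the data. The share called in the real libraries may therefore differ. The smaller changes seen between the ages were not simulated, so how often such changes would be called is not known. Per-library measures used exact permutation tests. edgeR 4.0.16 and DESeq2 1.42.0 on recovered reads, other pseudocounts, filters and scaling, and leaving out libraries were alternatives. Named reads were the 10 with the highest mean, the main read of each RNA, and up to 3 gains and 3 losses with an unadjusted p under 0.05. Other 5′ end reads and the stop groups were chosen after their values were seen. The members and lists were chosen with earlier results of these data known.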

Additional observations from a re-analysis of the deposited data

Results flagged for a closer look

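Reads of at least 18 nt that match miscRNA genes exactly were also found under other annotations, outside the sequences described above. There are no control pull-downs, and the values are compared with the level of 3 reads, at most 0.156 RPM. The signal recognition particle RNA Rn7s1 had 68 such sequences at 52.6 RPM, called piRNA (44) or mRNA (24), at 54.1, 44.7 and 38.0 RPM at 2M and 56.9, 58.9 and 62.8 RPM at 18M, and all 68 also match its copy Rn7s2. Rn7s6 had 18 sequences at 1.76 RPM. Vaultrc5 had 19 sequences called mRNA at 3.68 RPM, more than its 0.898 RPM called miscRNA. These 19 had 3.91, 2.51 and 2.24 RPM at 2M and 4.62, 4.10 and 4.705 RPM at 18M, without overlap. Rn7sk had 16 sequences at 3.04 RPM and Bc1 had 4, called mRNA, at 1.16 RPM. For these reads of Rn7s6, Rn7sk and Bc1 the ages overlapped, and none of these differences was tested. No read matched Rmrp, Rpph1 or Terc.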

How the results depend on the processing

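Of 439 alternative values for 40 results, 384 kept their direction and call and 10 turned in sign, all 10 of them small differences that passed no test. The age difference in mean seed viability (0.115 points) was -0.355 with reads of 19 to 24 nt, -0.0699 with every sequence counted once, and -0.152 to 0.392 with a library left out. With a library left out, the share of reads with a viability of at least 70% differed by -0.379 to 1.34 points, the Rny3 5′ end share by -2.95 to 0.0779 points, the Bc1 log2 fold change was -0.405 to 0.0133 and that of Rny3 bases 74 to 97 -0.138 to 0.0164. The last was 0.11 when effects of the 2 closing bases were removed, an alternative chosen, like those for Y RNA ends, after seeing the data. Without the most abundant sequence, whose viability of 50.5% is below the mean, miscRNA exceeded miRNA reads in viability by 2.48 points. DESeq2 called 1 miscRNA read in place of 0, and 232 of all 16220 sequences against 26 in limma. The share of all reads that was miscRNA differed by 0.00618 to 0.0111 points with a library left out. Leaving out a library gives 5 pairs, whose smallest exact permutation p is 0.0625, so the class differences no longer passed 0.05 by construction. In length they were 2.44 to 2.53 nt against miRNA, 2.38 to 2.51 against tRNA, 2.39 to 2.51 against rRNA and 2.63 to 2.76 against snRNA and snoRNA, and in viability -4.29 to -3.93, 3.51 to 3.81 and 3.68 to 4.74 points against the last 3. These 3 viability differences moved more with the sequences taken, as given above.

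Same-numbered libraries showed no positive correlation of their deviations (r = -0.128, -0.0744 and -0.163). Such values from 3 libraries per age cannot exclude a shared preparation. Replicate numbers were not used as pairs in the main tests. With the replicate number as a block, limma called 0 miscRNA reads and 0 source RNAs, as without it. That block fit called 0 of all 16220 sequences and 1 of all 2127 labels. Low reads limit the rest: 366 sequences were under 1 RPM and were not tested.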
